A study of Mus musculus with 6 samples.

Results

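The 8 haematopoietic growth factor receptor genes Kit, Flt3, Csf1r, Csf2ra, Csf2rb, Csf3r, Il3ra and Epor were examined on 6 Affymetrix arrays. A probe set was a member when it was annotated to one of these symbols alone, which gave 13 probe sets among 45037 in all. All 8 genes and all 13 probe sets passed the filter on dim values, against 10302 of 18193 genes and 20102 of 45037 probe sets over the whole array. Each gene is represented by its brightest probe set, by the mean over all arrays, and the others are given beside it.

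The arrays carry RNA of 3 Gata3-/- and 3 Gata3+/- samples, all described as T-cell progenitors derived from mouse embryonic stem cells. GATA3, a transcription factor with zinc fingers, is required when progenitors enter the T lineage. Both genotypes carry a disrupted Gata3 allele, so the Gata3+/- cells are heterozygotes and no wild-type cells were compared. Cells of both genotypes were differentiated on OP9 and OP9-DL1 bone marrow stroma, the second of which displays a Notch ligand, with the cytokines IL-7 and Flt3L present, and were sorted by flow cytometry before RNA extraction. Neither the sort markers, nor the disrupted part of the gene, nor the number of stem cell clones per genotype is stated in the labels. The replicates are called biological, but nothing says that they came from separate cultures, so the p-values rest on the spread among these arrays alone.

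Growth factor receptors of blood cells belong mainly to a pair of families. KIT, FLT3 and the CSF1 receptor are receptor tyrosine kinases, which bind stem cell factor, FLT3 ligand and macrophage colony-stimulating factor (M-CSF) and phosphorylate themselves. The receptors for GM-CSF, IL-3, G-CSF and erythropoietin have no kinase of their own and signal through JAK2, which is bound to them, and through STAT5 or STAT3. KIT and FLT3 mark stem cells and early progenitors, whereas the CSF1 receptor marks monocytes and macrophages, the G-CSF receptor marks granulocytes and their precursors, and the erythropoietin receptor acts in red cell precursors.

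Levels are log2 values of the GC-RMA intensities deposited by the authors, and differences are Gata3-/- minus Gata3+/- on that log2 scale, tested with limma over all 20102 probe sets that passed the filter. On each array 19977 to 20124 probe sets reached the minimum log2 value of 4. Of 15 T-lineage marker genes on the array, 13 never reached it on any array, among them Cd3e, Ptcra, Bcl11b, Rag1 and Il2ra. The label of T-cell progenitors is not borne out by these 13 transcripts. Of the 2 others, Lat was above the minimum on all 6 arrays and Cd28 on the 3 Gata3+/- arrays alone. The Gata3 probe set itself had log2 levels of 5.87, 6.44 and 5.48 in Gata3-/- arrays and 5.39, 6.40 and 5.86 in Gata3+/- arrays (difference 0.05, limma adjusted p = 0.954). It does not check the genotypes, because it may lie outside the disrupted part. Each array measured a whole sorted population, in which a change in the number of cells of a type and a change in RNA per cell cannot be told apart.

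Of the 8 receptor genes only Kit passed the test (limma, adjusted p under 0.05), and it was higher in Gata3-/- cells. That is 1 of 8 genes, against 5.27% of the 10302 genes tested, and 1 of 13 probe sets, against 4.37% of all probe sets tested. These calls, and those of the lists given further on, rest on all 6 arrays and on the filter. Over the whole array 543 genes were called, against 0 to 4 when 1 array was left out and 98 without the filter. At an unadjusted p under 0.05 there were 3 of 8, against 25.8% of genes tested. The differences of the 8 genes ran from -0.22 for Csf1r to 1.32 for Flt3, with 4 positive and 4 negative and a median of 0.05, against a median of -0.019 over all genes tested. The values of the genotypes did not overlap for 3 genes, Kit, Flt3 and Csf1r, which is 37.5% of the 8, against 33.6% of all genes tested. As a group the receptors were therefore near the background in this respect.

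**Figure D1:**
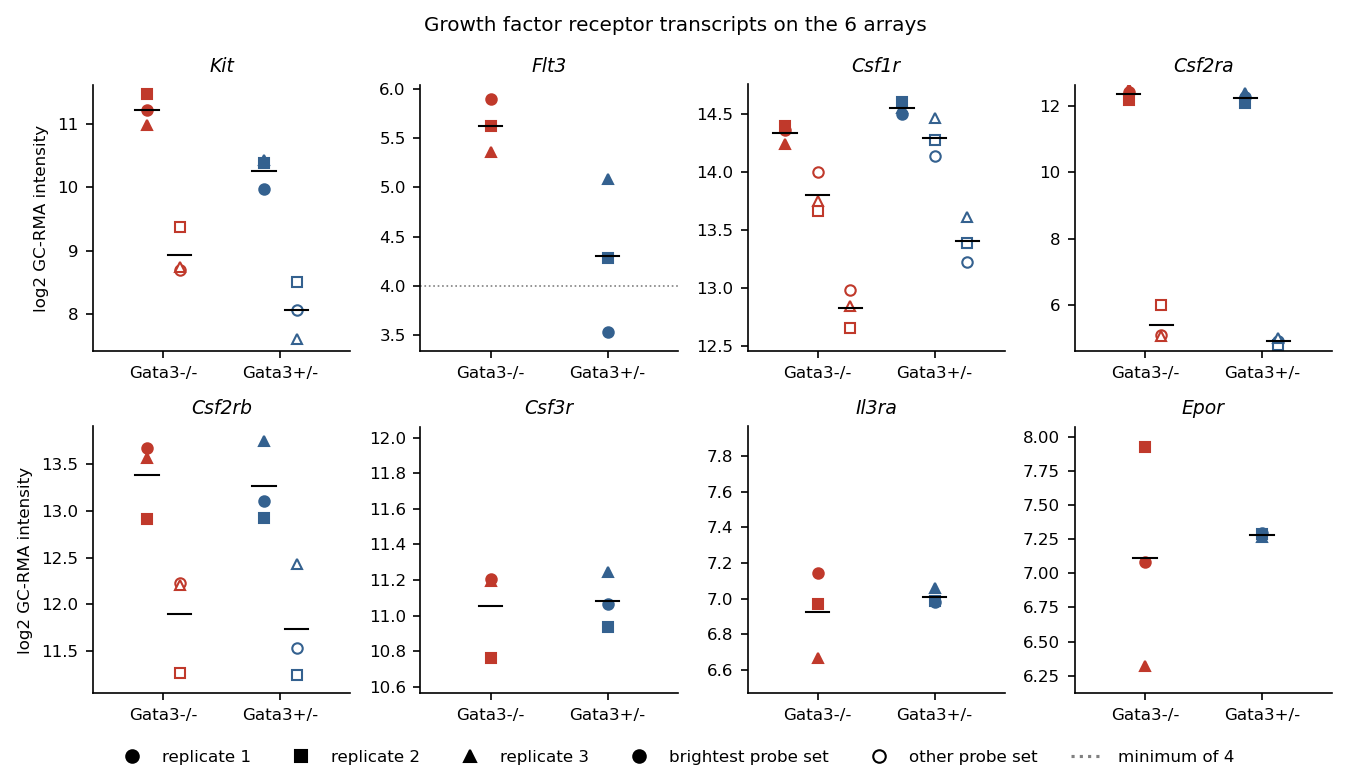
Log2 GC-RMA intensity (vertical axis, scaled separately in each panel) of the 13 receptor probe sets on the 3 Gata3-/- and 3 Gata3+/- arrays. Filled symbols are the brightest probe set of a gene, open symbols its other probe sets, symbol shapes the replicate number and black bars the mean. The genotypes separate for both probe sets of Kit, for Flt3, for all 3 probe sets of Csf1r and, narrowly, for the dimmer probe set of Csf2ra.

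Kit encodes the receptor for stem cell factor, which keeps stem cells, early progenitors and mast cells alive. Its brightest probe set stood at 11.22, 11.47 and 10.98 in Gata3-/- arrays and at 9.98, 10.38 and 10.43 in Gata3+/- arrays. Every Gata3-/- array lay above every Gata3+/- array. The genotype means were 11.22 ± 0.24 in Gata3-/- and 10.26 ± 0.25 in Gata3+/- cells (SD, n = 3 each), which makes Kit 1.95-fold higher in Gata3-/- cells. The difference was 0.96 (SE 0.18, 95% interval from 0.52 to 1.40, limma adjusted p = 0.0477).

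The other Kit probe set, which is dimmer, stood at 8.70, 9.37 and 8.74 in Gata3-/- arrays and at 8.07, 8.51 and 7.61 in Gata3+/- arrays. It also separated the genotypes, with a difference of 0.87 (SE 0.29) that did not pass (limma adjusted p = 0.147). On both probe sets the highest value was that of Gata3-/- replicate 2. The call for Kit was lost in each of the 6 fits that left out 1 array (differences 0.82 to 1.08, limma adjusted p from 0.0844 to 0.130). It was also lost without a filter and without the genes of chromosomes 6, 11, 14 and Y, which change the probe sets adjusted over and leave the difference as it was. Without the filter, the dim probe sets also entered the variance estimate of limma.

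The level of Kit was set beside markers of cells that carry the receptor. Of 12 mast cell and basophil genes on the array, 3 were tested and 0 passed in limma (0 at an unadjusted p under 0.05), with a median difference of 0.50. The 3 tested were Cpa3, Hdc and Gata2 (differences 0.14, 0.84 and 0.50), each above the minimum on all 6 arrays. Cpa3 stood at 6.83, 9.99 and 8.003 in Gata3-/- arrays and at 7.195, 9.203 and 8.006 in Gata3+/- arrays. Fcer1a, Ms4a2, Tpsb2, Tpsab1, Cma1 and Mcpt8, which encode the IgE receptor chains and granule proteases, never reached the minimum. The mast cell proteases Mcpt1, Mcpt2 and Mcpt4 reached it only on Gata3-/- replicate 2, at 4.60, 4.91 and 4.26. The mean level of that list was 3.43 to 4.71 on Gata3-/- arrays and 3.39 to 3.72 on Gata3+/- arrays, highest on the array where Kit was also highest. Without that array the Kit difference was 0.84. Of 10 multipotent progenitor genes 7 were tested, with 0 higher and 1 lower, against 2.86% and 2.41% of all genes tested. The lower one was Cd34, a surface marker of progenitors (difference -0.88, limma adjusted p = 0.0479). The list had a median difference of 0.38, with 4 positive and 3 negative. Among the positive genes, Meis1, at 0.55, separated the genotypes and did not pass (limma adjusted p = 0.0946). The mean level of the progenitor list was 7.41 to 7.45 on Gata3-/- arrays and 7.35 to 7.64 on Gata3+/- arrays, so the genotypes overlapped. The part of these cells in the Kit difference was not tested.

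Kit lies on chromosome 5, where the 675 genes tested had a median difference of -0.055. The 20 tested genes nearest to it, 10 on each side, had a median difference of -0.15, with 5 positive and 15 negative. The higher level of Kit was thus not shared by its neighbours. None of the 8 receptors lies on chromosome 11, whose 886 tested genes had a median difference of 0.33, or on chromosomes 6 or Y.

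The genes most like Kit over the 6 arrays were found as those with the smallest root mean square distance between profiles centred on their own mean, among 10302 genes. They were Col23a1, a collagen (distance 0.085), Xpc, a DNA damage recognition factor (0.095), and Slc25a35, a mitochondrial carrier (0.101). Their differences were 0.99, 0.88 and 0.98, and Xpc and Slc25a35 passed the test. The profiles compared hold the genotype difference, so differences near that of Kit follow from the choice and are no separate result. Xpc is on chromosome 6 and the other two are on chromosome 11.

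Flt3 encodes the receptor for FLT3 ligand, the cytokine that was added to these cultures and that drives lymphoid progenitors and dendritic cells. Its single probe set stood at 5.90, 5.62 and 5.36 in Gata3-/- arrays and at 3.53, 4.28 and 5.09 in Gata3+/- arrays. All Gata3-/- values lay above all Gata3+/- values, but Gata3+/- replicate 3 was close to the lowest Gata3-/- array and Gata3+/- replicate 1 was under the minimum. The difference of 1.32 (SE 0.40, 95% interval from 0.33 to 2.32) was larger than that of Kit and did not pass (limma adjusted p = 0.124, unadjusted p = 0.0175). The SD was 0.27 among Gata3-/- arrays and 0.78 among Gata3+/- arrays. Flt3 passed in 1 of 15 alternative fits, that with array weights (difference 1.76), and over the 15 the limma adjusted p ran from 0.0465 to 0.372. The difference was 0.94 to 1.72 when 1 array was left out, lowest without Gata3+/- replicate 1. With the filter at a log2 value of 6 Flt3 was too dim to be tested. Its neighbours on chromosome 5 had a median difference of -0.006.

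The Flt3 values were set beside genes of dendritic cells, which carry the receptor. Of 8 conventional dendritic cell genes on the array, Flt3 itself left out, 6 were tested, with 1 higher and 0 lower. Over all genes tested 2.86% were higher and 2.41% lower. The higher one was Zbtb46, a factor of conventional dendritic cells (1.89, limma adjusted p = 0.0485). The median difference of the 6 genes was 1.27, with 5 positive and 1 negative. The genotypes did not overlap for 5 of the 6, against 33.6% of all genes tested. Ccr7, a migration receptor, and Irf4 had differences of 2.42 and 2.25 and did not pass, Batf3 had -0.775, and Xcr1 and Cd209a never reached the minimum. The mean level of the list was 7.79 to 8.09 on Gata3-/- arrays and 6.63 to 7.33 on Gata3+/- arrays, without overlap. Of 7 plasmacytoid dendritic cell genes on the array 5 were tested, and their differences had both signs. The mean level of all 7 was 6.41 to 6.59 on Gata3-/- arrays and 6.79 to 6.84 on Gata3+/- arrays. That mean takes in Siglech (fitted difference -4.50) and does not describe the list without that gene. Siglech, a surface lectin, was under the minimum on all 3 Gata3-/- arrays and stood at 7.59, 9.02 and 7.502 in Gata3+/- arrays, so that it entered the test, where it was the 1 gene called, through Gata3+/- arrays alone. Spib, a transcription factor, had a difference of 2.74 the other way and did not pass (limma adjusted p = 0.0652). The part of these cells in the Flt3 values was not tested.

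The genes most like Flt3 over the 6 arrays were Rasgrp1, a Ras activator of lymphocytes (distance 0.21, difference 1.54, limma adjusted p = 0.0443), Pstpip1, a cytoskeletal adaptor (0.24, difference 1.13), and Panct2 (0.28, difference 1.33, limma adjusted p = 0.0479). Here too, differences near that of Flt3 follow from the choice.

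Csf1r encodes the receptor for M-CSF and IL-34 and is a defining gene of macrophages. The brightest of its 3 probe sets stood at 14.36, 14.39 and 14.24 in Gata3-/- arrays and at 14.50, 14.60 and 14.55 in Gata3+/- arrays. The second stood at 13.9999, 13.66 and 13.75 in Gata3-/- arrays and at 14.14, 14.27 and 14.46 in Gata3+/- arrays. The third stood at 12.98, 12.65 and 12.85 in Gata3-/- arrays and at 13.22, 13.38 and 13.61 in Gata3+/- arrays. On each of the 3 probe sets all Gata3-/- values lay below all Gata3+/- values.

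The size of the Csf1r difference depended on the probe set. It was -0.22 (SE 0.08, limma adjusted p = 0.165) for the brightest, which makes the level 0.859 of that in Gata3+/- cells, -0.49 (SE 0.13, adjusted p = 0.0949) for the second and -0.58 (SE 0.14, adjusted p = 0.0739) for the third, and none passed. The 3 probe sets measure the same RNA and are not replicates.

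Of 12 macrophage and monocyte markers on the array 11 were tested, of which 0 were higher and 2 lower, against 2.86% and 2.41% of all genes tested. The lower ones were Cx3cr1, the fractalkine receptor (-0.83, limma adjusted p = 0.0323), and Fcgr1, a high-affinity Fc receptor (-0.70, adjusted p = 0.0431). The list had a median difference of -0.40, with 9 negative and 2 positive. Cd68, a lysosomal protein, was 1 of the 2 positive genes, at 0.53, and did not pass. The mean level of the list was 11.20 to 11.50 on Gata3-/- arrays and 11.63 to 11.87 on Gata3+/- arrays, without overlap. The genotypes did not overlap for 8 of the 11 genes, against 33.6% of all genes tested. The part of macrophages in the Csf1r values was not tested.

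**Figure D2:**
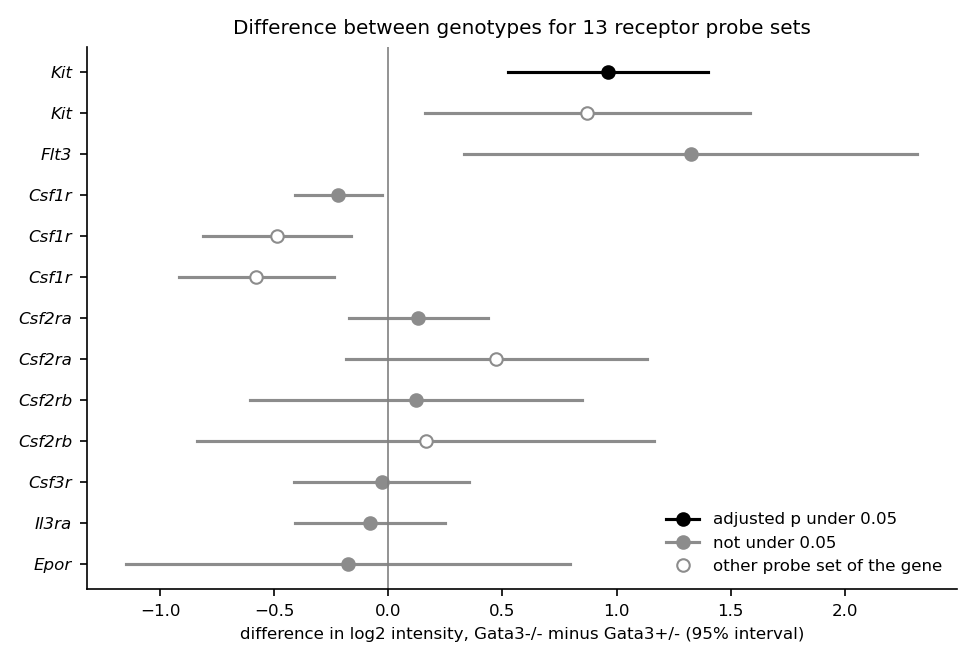
Difference in log2 intensity, Gata3-/- minus Gata3+/-, of the 13 receptor probe sets with its 95% interval from limma (horizontal axis), with the brightest probe set of each gene filled. Kit at 0.96 passed the test; the interval excluded 0 also for its other probe set, for Flt3 and for the 3 probe sets of Csf1r, none of which passed after adjustment.

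The GM-CSF receptor is built from a ligand-binding alpha chain, Csf2ra, and the beta chain Csf2rb that it shares with the IL-3 and IL-5 receptors. Csf2ra stood at 12.42, 12.19 and 12.50 in Gata3-/- arrays and at 12.25, 12.07 and 12.38 in Gata3+/- arrays. The genotypes overlapped, and the difference was 0.13 with a 95% interval from -0.17 to 0.44 (limma adjusted p = 0.58). Its other probe set, near the minimum, stood at 5.09, 5.99 and 5.07 in Gata3-/- arrays and at 4.92, 4.80 and 5.01 in Gata3+/- arrays. There the genotypes did not overlap, but only Gata3-/- replicate 2 stood clear of the other 5 arrays, and the difference of 0.47 did not pass (limma adjusted p = 0.354).

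Csf2rb, the beta chain, stood at 13.67, 12.91 and 13.56 in Gata3-/- arrays and at 13.11, 12.92 and 13.75 in Gata3+/- arrays. Its other probe set stood at 12.22, 11.26 and 12.21 in Gata3-/- arrays and at 11.53, 11.25 and 12.43 in Gata3+/- arrays. Both probe sets were lowest on replicate 2 in either genotype, and the genotypes overlapped. The differences were 0.12 (95% interval from -0.61 to 0.85, limma adjusted p = 0.847) and 0.16 (adjusted p = 0.85). The pooled SD within genotypes was 0.42 for the brighter probe set, more than 3 times its difference, and 10.6% of genes tested had a pooled SD that large or larger.

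Mice carry a closely related copy, Csf2rb2, whose product serves the IL-3 receptor alone. It stood at 11.25, 10.59 and 10.96 in Gata3-/- arrays and at 10.60, 10.58 and 11.59 in Gata3+/- arrays, with a difference of 0.009 (limma adjusted p = 0.99). A further probe set annotated to both copies stood at 10.45, 9.74 and 10.34 in Gata3-/- arrays and at 9.94, 9.55 and 10.52 in Gata3+/- arrays. On all 4 beta chain probe sets replicate 2 was the lowest array of its genotype and Gata3+/- replicate 3 the highest of its own. Because the copies are closely related in sequence, signal from one on the probe sets of the other cannot be told apart here.

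The same arrays numbered 2 were lowest in the mean level of markers of the stroma on which the cells grew, though not for every marker. This was not particular to stroma, since the macrophage, conventional dendritic cell, erythroid and progenitor lists were also lowest there in both genotypes. The macrophage mean was 11.50, 11.20 and 11.47 on Gata3-/- arrays and 11.66, 11.63 and 11.87 on Gata3+/- arrays. The neutrophil, mast cell, plasmacytoid and T-lineage lists were not lowest there in both genotypes. Of 15 OP9 stroma genes 12 were tested and 0 passed in limma (1 at an unadjusted p under 0.05, Postn, with adjusted p = 0.138). The mean level of all 15 was 7.25, 6.59 and 8.01 on Gata3-/- arrays and 7.96, 6.87 and 8.004 on Gata3+/- arrays. Among the genes tested, Cxcl12 was highest on replicate 2 of both genotypes. Pdgfrb and Kitl were lowest on replicate 1 in Gata3-/- arrays, and Postn was lowest on replicate 1 in Gata3+/- arrays. Dcn, Lum and Thy1 never reached the minimum. The part of stroma, or of any other of these cells, in the beta chain values was not tested.

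**Figure D3:**
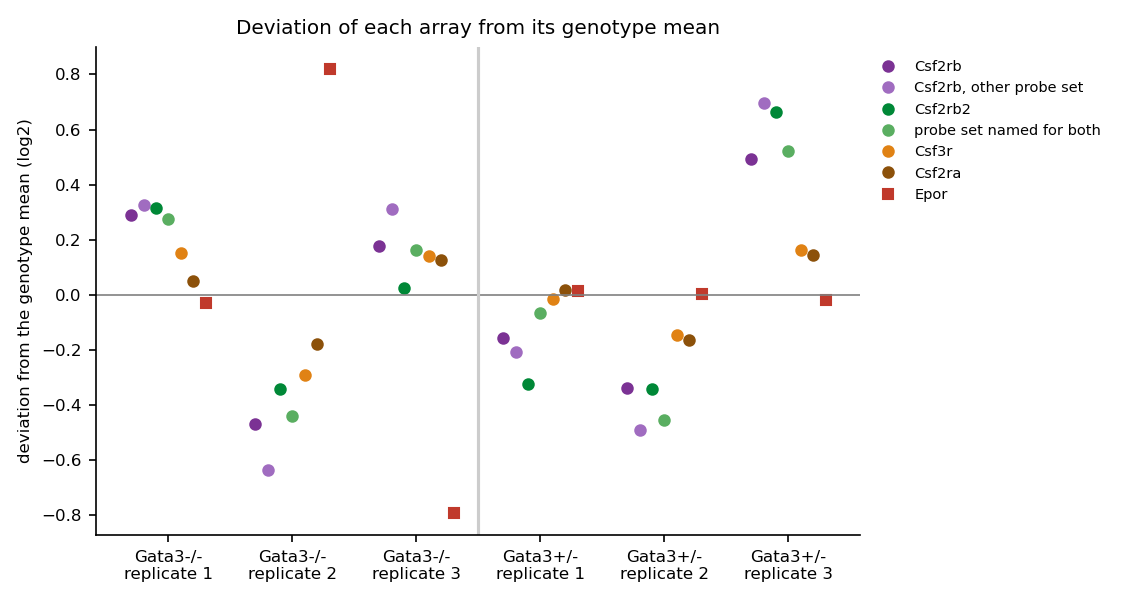
Deviation of each array from the mean of its genotype, in log2 units (vertical axis), for the 4 beta chain probe sets, Csf3r, the brightest Csf2ra probe set and Epor. Circles of the beta chains, Csf3r and Csf2ra lie below 0 on replicate 2 of both genotypes, whereas Epor (squares) spans 0.82 to -0.79 in Gata3-/- arrays and stays within 0.02 of the mean in Gata3+/- arrays.

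Il3ra encodes the alpha chain of the IL-3 receptor. It stood at 7.14, 6.97 and 6.67 in Gata3-/- arrays and at 6.98, 6.98 and 7.06 in Gata3+/- arrays. The genotypes overlapped, and the difference was -0.08 with a 95% interval from -0.41 to 0.25 (limma adjusted p = 0.767). It lies on chromosome 14, where its 20 nearest tested neighbours had a median difference of 0.14.

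Csf3r encodes the receptor for G-CSF, the main growth factor of neutrophils. It stood at 11.21, 10.76 and 11.19 in Gata3-/- arrays and at 11.07, 10.94 and 11.25 in Gata3+/- arrays, again lowest on replicate 2 of both genotypes. The difference was -0.03 with a 95% interval from -0.41 to 0.35 (limma adjusted p = 0.936). Among neutrophil genes 6 of 12 on the array were tested and 0 passed in limma (2 at an unadjusted p under 0.05). These 2 went opposite ways, Prtn3 at -2.19 (limma adjusted p = 0.085) and S100a9 at 2.63 (adjusted p = 0.186). The list had 3 positive and 3 negative differences with a median of 0.71. Elane, Ctsg, Ngp, Ltf, Camp and Mmp9, which encode granule proteins, never reached the minimum. The mean level of the list was 4.21 to 4.999 on Gata3-/- arrays and 4.0004 to 4.77 on Gata3+/- arrays. Other genes of the list were detected. Mpo, the myeloperoxidase of granules, stood at 8.07, 10.15 and 8.81 in Gata3-/- arrays and at 9.49, 10.25 and 9.65 in Gata3+/- arrays. S100a8, S100a9 and Cxcr2 were also above the minimum on all 6 arrays. Prtn3 and Mmp8 were above it on 5 of 6. The part of neutrophils in the Csf3r values was not tested.

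Epor encodes the erythropoietin receptor. It stood at 7.08, 7.93 and 6.32 in Gata3-/- arrays and at 7.30, 7.29 and 7.27 in Gata3+/- arrays. The Gata3+/- values lay inside the range of the Gata3-/- values, whose SD was 0.81 against 0.016 in Gata3+/- cells. The means differed by -0.18 with a 95% interval from -1.15 to 0.80 (limma adjusted p = 0.833). Without Gata3-/- replicate 3 the difference turned to 0.22, so its sign rested on 1 array.

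The spread of Epor was set beside erythroid genes. Klf1, a factor of red cell precursors, stood at 8.54, 10.04 and 8.21 in Gata3-/- arrays and at 8.19, 8.51 and 7.59 in Gata3+/- arrays, and like Epor it was highest on Gata3-/- replicate 2 and lowest among Gata3-/- arrays on replicate 3. Gata1 followed the same order in Gata3-/- arrays, at 8.73, 9.37 and 8.53, and stood at 9.04, 9.05 and 8.77 in Gata3+/- arrays. The embryonic globin Hbb-bh1 ran the other way on Gata3-/- replicate 2, at 13.94, 12.31 and 13.77 in Gata3-/- arrays and 14.43, 13.78 and 14.43 in Gata3+/- arrays. Hbb-y, Alas2 and Slc4a1 were likewise lowest among Gata3-/- arrays on replicate 2, whereas Tfrc was highest there. Of 9 erythroid genes on the array 7 were tested and 0 passed in limma (1 at an unadjusted p under 0.05, the transferrin receptor Tfrc), and the mean level of the list was 8.12 to 8.40 on Gata3-/- arrays and 7.79 to 8.14 on Gata3+/- arrays. Hba-a1 and Epb42 never reached the minimum. The part of red cell precursors in the Epor values was not tested. The genes most like Epor over the 6 arrays were Cd55, a complement regulator (distance 0.17), Cep135, a centriole protein (0.18), and Fgfbp3 (0.18), with differences between -0.09 and 0.08 that did not pass. Such small differences again follow from the choice.

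The promoters of the 6 receptor genes examined here were searched on both strands for the GATA motif (GATAA or, equally, GATAG, with either A or T before it) and for the core of the PU.1 motif (GAGGAA), in RefSeq sequences of assembly GRCm38.p6 that run from 250 bases before to 50 after the start. Those of Kit and Flt3, the receptors with the largest differences, and of Epor, the receptor with the widest spread among Gata3-/- arrays, are shown 5′ to 3′ on the gene's strand, with motif matches in capitals. They lie at chr5:75574737-75575036 (plus strand), chr5:147400440-147400739 (minus strand) and chr9:21963527-21963826 (minus strand).
Kit: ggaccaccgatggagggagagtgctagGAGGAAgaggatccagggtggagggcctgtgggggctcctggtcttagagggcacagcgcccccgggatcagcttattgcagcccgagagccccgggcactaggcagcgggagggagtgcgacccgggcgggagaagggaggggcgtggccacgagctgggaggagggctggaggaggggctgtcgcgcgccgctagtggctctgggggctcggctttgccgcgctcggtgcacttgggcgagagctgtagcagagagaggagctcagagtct
Flt3: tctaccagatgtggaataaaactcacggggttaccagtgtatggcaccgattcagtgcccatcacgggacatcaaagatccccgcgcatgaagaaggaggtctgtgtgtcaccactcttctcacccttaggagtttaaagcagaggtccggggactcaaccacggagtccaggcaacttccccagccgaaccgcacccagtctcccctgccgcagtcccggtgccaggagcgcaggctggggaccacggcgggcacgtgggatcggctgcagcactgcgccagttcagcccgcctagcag
Epor: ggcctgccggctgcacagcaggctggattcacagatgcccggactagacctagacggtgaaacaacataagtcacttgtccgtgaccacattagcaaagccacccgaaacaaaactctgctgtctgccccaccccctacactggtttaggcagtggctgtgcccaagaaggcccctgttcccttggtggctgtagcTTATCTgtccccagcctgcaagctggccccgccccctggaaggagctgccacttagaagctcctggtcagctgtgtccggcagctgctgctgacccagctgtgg
The Kit promoter held 1 GAGGAA, 223 bases before the start, and no GATA motif, and the Flt3 window held neither. The Epor promoter held the GATA motif on the opposite strand, so that its reverse complement is in capitals, 54 bases before the start. A GATA motif was in 2 of the 6 promoters, those of Epor and Il3ra, against 29.8% of all 32851 promoters of that length. GAGGAA was in 3 of 6, those of Kit, Csf2ra and Csf3r, against 28.3% of all promoters. No motif match overlapped another. The receptors were counted by gene, whereas the background counts each promoter entry, and a gene such as Kit can have more than 1 entry. These counts leave out Csf1r and Csf2rb, whose promoters were not examined. They describe letters in short windows and not binding.

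Genes of the receptors' pathways were taken from 6 lists of ligands, related receptors, proximal signalling, negative regulators, induced genes and transcription factors. Among all genes tested 2.86% were higher and 2.41% were lower. Of 6 ligand genes on the array 2 were tested, and neither passed. Kitl, which encodes stem cell factor, stood at 4.60, 5.34 and 6.57 in Gata3-/- arrays and at 6.53, 5.13 and 6.03 in Gata3+/- arrays (difference -0.39, limma adjusted p = 0.748). Csf1, which encodes M-CSF, stood at 9.22, 8.06 and 9.81 in Gata3-/- arrays and at 9.27, 7.37 and 9.46 in Gata3+/- arrays (difference 0.33, adjusted p = 0.823), lowest on replicate 2 of both genotypes. Csf2, Csf3, Il3 and Il34 never reached the minimum on any array.

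Of 13 tested receptors related to the 8 genes, 1 was higher and 2 lower, of which Flt1 entered the test through Gata3+/- arrays alone. Il7r, the receptor chain for IL-7, the other cytokine in the cultures, was higher (difference 1.20, SE 0.19, limma adjusted p = 0.0371). Lifr, the receptor for leukaemia inhibitory factor, stood at 8.89, 8.69 and 8.99 in Gata3-/- arrays and at 10.11, 10.23 and 9.86 in Gata3+/- arrays (difference -1.21, SE 0.13, adjusted p = 0.0281). Flt1, a receptor for VEGF and a tyrosine kinase related to KIT and FLT3, was under the minimum on all 3 Gata3-/- arrays and stood at 5.26, 6.74 and 5.48 in Gata3+/- arrays. It was at least 3.54-fold lower in Gata3-/- cells, a bound computed from the Gata3+/- mean against the minimum. Its limma adjusted p of 0.0356 rests on Gata3-/- values under the minimum. The list had a median difference of -0.39, with 5 positive and 8 negative.

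Of 29 tested genes of proximal signalling 4 were higher and 0 lower. Jak2, the kinase bound to the GM-CSF, IL-3 and erythropoietin receptors, stood at 11.47, 11.13 and 11.18 in Gata3-/- arrays and at 10.37, 10.44 and 10.57 in Gata3+/- arrays (difference 0.80, SE 0.12, limma adjusted p = 0.0359). Tyk2, a kinase of the same family, had a difference of 0.67 (SE 0.12, adjusted p = 0.0477). Stat5a, a transcription factor that JAK2 phosphorylates, had a difference of 1.04 (SE 0.14, adjusted p = 0.0334), and the adaptor Grb2, which couples the receptors to Ras, of 0.55 (SE 0.09, adjusted p = 0.042).

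Stat5a and Grb2 lie on chromosome 11, where the 20 tested genes nearest to each had median differences of 0.39 and 0.35, with 19 of 20 positive for both. Jak2 and Tyk2 lie on chromosomes 19 and 9, where the medians of the neighbours were -0.025 and -0.14. The part of the chromosome 11 shift in the Stat5a and Grb2 values was not tested. The median over the signalling list was 0.09, with 16 positive and 13 negative.

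Of 32 tested negative regulators 1 was higher and 2 lower. Cblb, a ubiquitin ligase that turns off activated receptors, had a difference of 0.60 (SE 0.10, limma adjusted p = 0.0383). Socs4, a member of the SOCS inhibitor family, stood at 8.24, 8.16 and 8.20 in Gata3-/- arrays and at 9.10, 9.26 and 9.30 in Gata3+/- arrays (difference -1.02, SE 0.08, adjusted p = 0.0281). Its 20 nearest tested neighbours on chromosome 14 had a median difference of -0.43, whose part in the Socs4 value was not tested. Sla2, an adaptor that dampens receptor signalling in lymphocytes, had a difference of -0.60 (SE 0.10, adjusted p = 0.0428). The median of the list was -0.06.

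Of 20 tested genes that STAT5 or ERK induce downstream of such receptors, 0 passed in limma (6 at an unadjusted p under 0.05), and the median was 0.09. The STAT5 feedback inhibitor Cish stood at 8.18, 7.83 and 7.86 in Gata3-/- arrays and at 6.21, 5.32 and 6.76 in Gata3+/- arrays (difference 1.86, limma adjusted p = 0.0548). Socs2, another such inhibitor, stood at 10.64, 10.06 and 10.56 in Gata3-/- arrays and at 8.36, 7.12 and 8.85 in Gata3+/- arrays (difference 2.31, adjusted p = 0.0551). All Gata3-/- values of both genes lay above all Gata3+/- values, although neither gene passed. The genotypes did not overlap for 7 of the 20 genes, against 33.6% of all genes tested. Among those 7, Pim2, Etv5 and Trib1 went the other way (differences -0.53, -0.88 and -0.49) and did not pass.

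Of 19 tested transcription factors known to bind or regulate the receptor genes, 0 were higher and 2 lower. Irf8, a factor of monocytes and dendritic cells, had a difference of -0.67 (SE 0.11, limma adjusted p = 0.0383), and Fli1, an ETS factor of blood and endothelium, of -0.655 (SE 0.11, adjusted p = 0.0385). The median of the list was -0.11, with 8 positive and 11 negative.

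**Figure D4:**
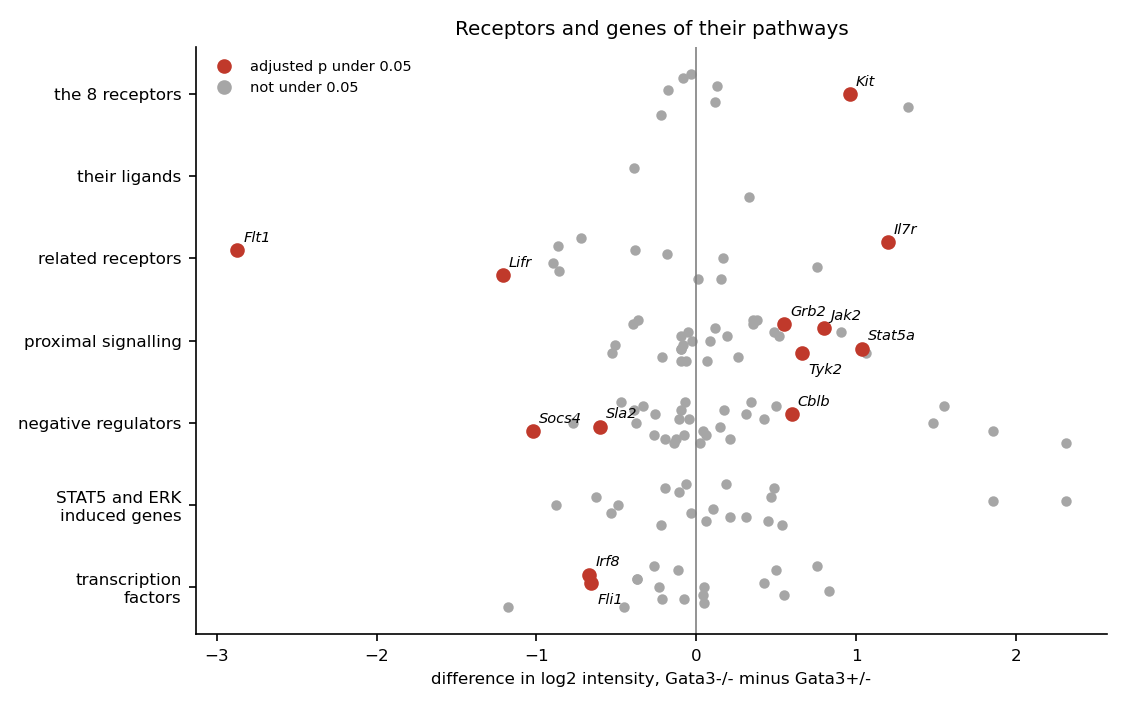
Difference in log2 intensity, Gata3-/- minus Gata3+/- (horizontal axis), of each tested gene in the receptor set and in 6 pathway lists, with vertical scatter only to separate points. Larger red points passed the test and are named; the value of Flt1 is the fitted one and stands against values under the minimum. Grey points at 1.86 and 2.31 are Cish and Socs2, which did not pass and stand in 2 lists.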

How the data were processed

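The intensities deposited by the authors were made with GC-RMA, per the labels, which corrects background from probe sequence and normalizes between arrays. The submitters' processing notes name GCOS; versions and settings are not stated there. Log2 was taken here without further normalization, and 64 control probe sets were dropped. Testing required a log2 value of 4 on at least 3 of 6 arrays. Dim values form a floor under GC-RMA, and the number of arrays limits the precision.

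The genotypes were compared with limma (version 3.58.1, R version 4.3.3, lmFit followed by eBayes, two-sided) and Benjamini-Hochberg adjustment over all 20102 probe sets, at a threshold of 0.05. The procedure was tested on simulated data. Symbols came from the platform annotation (1 symbol for 34958 probe sets, several for 932, 9211 not listed) and chromosomes from RefSeq (GRCm38.p6) by gene identifier.

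Members, lists, the naming rule and alternatives were chosen with earlier results of these data known. The rule named all members, each called gene of a pathway list (or the 2 with the smallest p), and the 3 genes most like each receptor spanning over 1 log2 unit. Marker genes named singly were picked with their values in view. Alternatives covered the filter, the normalization, the variance model, array weights, a replicate block, the choice of probe set, and the arrays and chromosomes included. Plots were drawn with matplotlib version 3.10.9.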

Additional observations from a re-analysis of the deposited data

How the results depend on the processing

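Kit was also called with the stricter filter (log2 value of 6), under quantile normalization or centring on the median, with a robust fit that follows a variance trend, with weighted arrays and with the mean of its probe sets. It kept its sign and lost the call without a filter (difference 0.96, adjusted p = 0.122), without chromosomes 6, 11, 14 and Y (0.96, 0.0587), without both arrays numbered 2 (0.90, 0.173) and for its other probe set (0.87, 0.147). Of the receptors 0 were called in limma without a filter, without those chromosomes or without both arrays numbered 2, where 3, 3 and 1 had an unadjusted p under 0.05. With weighted arrays 2 were called, since Flt3 passed (1.76, adjusted p = 0.0465). Over all genes and probe sets, 543 and 878 were called, against 98 and 166 without a filter, 824 and 1349 with the robust variance trend, 1224 and 2075 with weighted arrays, 229 and 391 without those chromosomes, and 3 and 4 without both arrays numbered 2. Leaving out each array in turn left 0 receptors, 0 to 4 genes and 0 to 9 probe sets called in limma, with 1 to 3 receptors at an unadjusted p under 0.05, in fits that hold fewer arrays. Over those fits the difference was 0.82 to 1.08 for Kit, -0.047 to 0.37 for Csf2rb, -0.11 to 0.12 for Csf3r, -0.19 to 0.049 for Il3ra and -0.58 to 0.22 for Epor, so the sign of these last 4 was not stable. It turned for Csf2rb without Gata3-/- replicate 1 or Gata3+/- replicate 2, for Csf3r without Gata3-/- replicate 2 or Gata3+/- replicate 3, and for Il3ra and Epor without Gata3-/- replicate 3. That of Csf3r was also 0.043 with weighted arrays and 0.042 without both arrays numbered 2. Flt3, Csf1r and Csf2ra kept their sign under each alternative run.

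With the replicate block 0 receptors (2 at an unadjusted p under 0.05), 298 genes and 498 probe sets were called in limma, and Kit had a difference of 0.96 (adjusted p = 0.0666). Same-numbered arrays had deviations from their genotype mean that correlated by 0.005 for number 1, 0.695 for number 2 and 0.429 for number 3, over 20102 probe sets, and 4 of 6 arrays correlated best with their own number. Since number 1 shows no such correlation and the labels give no shared source, the numbers were not taken as pairs, although the arrays numbered 2, and those numbered 3, deviated together. Beyond the fewer arrays or other genes that a fit holds, the cause of these changes was not tested.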
